A study of Mus musculus with 10 samples.

Results

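The SLC25 genes encode the mitochondrial carrier family, the set of inner membrane proteins that exchange metabolites between mitochondria and cytosol. Members were taken by name: every gene of the deposited expression table whose mouse symbol is Slc25a followed by a number. This gave 47 of the 55426 genes in the table. Of these, 39 passed the filter on low values, a mean over all aortas of at least 0.5 TPM (a length-corrected measure of how large a part of all transcripts a gene makes up), and were among the 15668 genes tested. The family was chosen by symbol, but Slc25a34 was selected on its TPM in these same aortas, so it is described without a test, and counts of calls are given for the other 38 tested members.

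The expression data came from mouse thoracic aorta, 3 control and 3 Prdm16SMKO samples. Both groups carried homozygous floxed Prdm16 (Prdm16f/f), and the Prdm16SMKO mice also carried SMMHC-CreERT2, a tamoxifen-inducible Cre under the promoter of the smooth muscle myosin heavy chain gene Myh11. Per the study's methods, mice of the C57BL/6J background were used, and Prdm16SMKO mice received tamoxifen at 75 mg/kg per day for 5 days at 8 weeks of age, followed by 2 weeks without it. Whether the control mice received tamoxifen and the age at which these aortas were taken are not given in the sources used here. By design, Cre recombination is limited to cells with an active Myh11 promoter. Cells without it, such as most endothelial cells, adventitial fibroblasts and adipocytes, would keep the floxed gene. Recombination by cell type was not measured here. A second data set held chromatin immunoprecipitation (ChIP-Seq) peaks from primary wild-type mouse vascular fibroblasts, infected for 48 h with lentivirus for Flag-tagged PRDM16 or for the empty vector and selected with 2 µg/mL puromycin for 1 week. It had 1 anti-Flag library for each, in a cell type other than the one deleted for Prdm16 in the aorta.

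PRDM16 carries zinc fingers and acts on transcription. The SLC25 carriers share a fold of repeated transmembrane helices around a central substrate site, and most act as exchangers. ADP/ATP and phosphate carriers serve oxidative phosphorylation, while others move citrate, amino acids, acylcarnitines, nucleotides, cofactors, iron or glutathione. Slc25a34 and Slc25a35 encode close relatives that resemble a yeast carrier of oxaloacetate and whose own substrates are not well defined.

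Of the genes tested, 168 (1.07%) had a limma adjusted p under 0.05, 61 of them higher and 107 lower in Prdm16SMKO aortas. Mitochondrially encoded transcripts took 14.7% to 26.5% of the TPM of an aorta, and the single most abundant gene took 20.2% to 28.2%. Prdm16 itself was at 56.07, 47.56 and 40.28 TPM in control aortas and at 23.31, 33.32 and 23.42 TPM in Prdm16SMKO aortas. The groups did not overlap, with a mean of 55.6% of the control mean. The adjusted p was 0.072 (limma), and it was under 0.05 in 3 of 15 alternative settings, which took it from 0.0238 to 0.23. A per-gene TPM also counts exons outside the floxed segment, and cells without Cre contribute to it. The labels do not say that the 3 samples of a group came from 3 mice, so p-values measure the spread between these samples.

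Slc25a34 (ENSMUSG00000040740, GRCm38 chr4:141618824-141623821, minus strand) was nearly absent from Prdm16SMKO aortas. Its level was 20.43, 14.81 and 11.38 TPM in the control aortas and 1.27, 0.67 and 1.22 TPM in the Prdm16SMKO aortas. Each Prdm16SMKO value was far below each control value, and the lowest control was 8.96-fold above the highest Prdm16SMKO aorta. The means were 15.5 ± 4.57 and 1.05 ± 0.333 TPM (SD, n = 3), a level 14.8-fold higher in control aortas, and the difference was -3.77 on the log2(TPM + 0.1) scale. It ranged from -3.97 to -2.99 over 15 alternative settings, the latter with a pseudocount of 1. Among the 47 carriers, ordered by mean TPM, a scale that corrects for transcript length, Slc25a34 was 17th in control and 38th in Prdm16SMKO aortas. Its share of the summed TPM of the family was 1.40% ± 0.351 in control and 0.108% ± 0.0380 in Prdm16SMKO aortas. Bulk RNA cannot tell fewer cells with Slc25a34 from less Slc25a34 RNA per cell.

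The closest relative of Slc25a34 in the family was at similar levels in both groups. Slc25a35 was at 9.59, 12.68 and 7.23 TPM in control and 9.27, 10.77 and 9.52 TPM in Prdm16SMKO aortas. The groups overlapped fully, with a log2 fold change of 0.04 (95% interval -0.44 to 0.51, adjusted p = 0.967, limma). The ratio of Slc25a34 to Slc25a35 was 1.62 ± 0.483 in control and 0.109 ± 0.0409 in Prdm16SMKO aortas (SD, n = 3), without overlap. Slc25a34 was therefore the more abundant of the pair in every control aorta and the less abundant in every Prdm16SMKO aorta. No exon of Slc25a34 overlaps an exon of another annotated gene, whereas Slc25a35 shares sequence with Rangrf on the opposite strand, and whether the counting used strand is not stated.

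**Figure D1:**
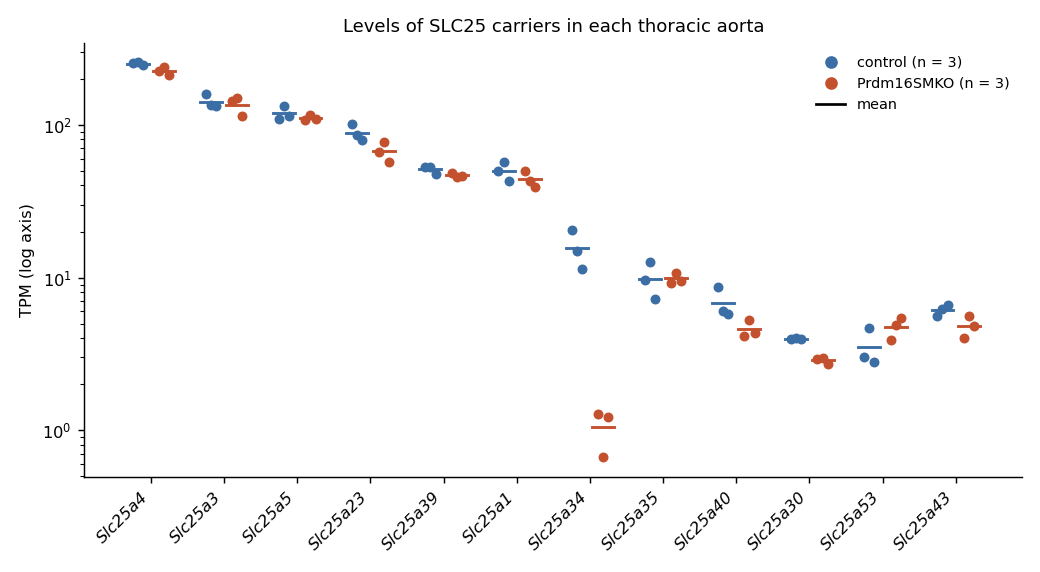
TPM on a log axis in each of the 3 control and 3 Prdm16SMKO aortas for the 6 most abundant carriers, Slc25a34, its relative Slc25a35 and the other carriers with the largest log2 fold changes. Points are aortas and bars are means. Slc25a34 lies at 11.38 to 20.43 TPM in control and 0.67 to 1.27 TPM in Prdm16SMKO aortas, while the groups of the other carriers lie close together.

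The sequence upstream of Slc25a34 is shown because it is poor in CpG beside the other carriers and because no PRDM16 peak was found there. The 250 bases before its transcription start site (TSS) in RefSeq, GRCm38 chr4:141623835-141624084, are printed 5′ to 3′ on the minus strand. Capitals mark 2 motif matches, a nuclear receptor half-site (AAGGTCA, read here as its complement TGACCTT) that begins 119 bases before the TSS and a GC box (GGGCGG, complement CCGCCC) that begins 88 bases before it.
Slc25a34 promoter: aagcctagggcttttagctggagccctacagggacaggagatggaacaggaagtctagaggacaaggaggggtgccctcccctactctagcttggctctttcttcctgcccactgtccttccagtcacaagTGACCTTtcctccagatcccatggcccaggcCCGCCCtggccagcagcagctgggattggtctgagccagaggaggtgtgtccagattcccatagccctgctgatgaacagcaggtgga
This stretch is 58.4% G or C and holds 1 CpG dinucleotide. Over the 300-base RefSeq promoter windows of the 36 carriers listed there, the number of CpG ran from 1 to 51, and none of the other 35 had as few as Slc25a34. On either strand, the half-site was in the promoter of none of the other 35 carriers listed and in 4.72% of all RefSeq promoters. It was also found in the summit window of the peak upstream of Slc25a28. A match of letters is a description and not a site of binding.

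Slc25a34 did not stand alone on its chromosome. Of 7 tested genes with a TSS within 100 kb, 3 were called lower in Prdm16SMKO aortas and none higher. Over all tested genes, 0.683% were called lower. Tmem82, a transmembrane protein gene which begins 190 bp past the 3′ end of Slc25a34 on the same strand, was at 8.91, 5.57 and 4.88 TPM in control and 0.77, 1.36 and 0.72 TPM in Prdm16SMKO aortas. It fell by 2.64 on the log2 scale (adjusted p = 0.00791, limma). The opposite-strand gene AI507597, named here after its values were seen, lies within Tmem82, and whether the counting used strand is not stated. AI507597 was at 0.49, 1.77 and 1.26 TPM in control and 0.35, 0 and 0 TPM in Prdm16SMKO aortas (log2 fold change -2.79, adjusted p = 0.228, limma). Fblim1, which encodes migfilin, an adaptor of cell-matrix adhesions, fell from 1009 ± 176 to 336 ± 43.0 TPM (log2 fold change -1.58, adjusted p = 0.00268, limma). Ddi2, an aspartic protease gene, fell by 0.70 (adjusted p = 0.0476, limma), a call that held in 5 of 15 alternative settings only. Between Slc25a34 and Ddi2, Plekhm2 had a log2 fold change of -0.45 (adjusted p = 0.326, limma), and on the other side Spen had -0.06 (adjusted p = 0.909, limma).

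Within 500 kb, 5 of 21 tested genes other than Slc25a34 were called, and within 1 Mb 6 of 29. All were called lower in Prdm16SMKO aortas, beside 0.683% of all tested genes. Those added at 500 kb, named here after their values were seen, were Arhgef19, a guanine nucleotide exchange factor (log2 fold change -3.03, adjusted p = 0.0052, limma), and Hspb7, a small heat shock protein of muscle (-1.14, adjusted p = 0.00836, limma). The calls of Tmem82, Arhgef19 and Hspb7 held in 14 of 15 alternative settings and were lost without the mean-variance trend (limma adjusted p 0.0546, 0.0546 and 0.0793), whereas that of Fblim1 held in all 15. The call added at 1 Mb, Arhgef10l, named after its values were seen, was just under the threshold (log2 fold change -0.75, adjusted p = 0.0497, limma). Its alternative settings are not given here. Uncalled genes lay among the called ones along this stretch, and their log2 fold changes went both ways. Efhd2, named after its values were seen, was higher in Prdm16SMKO aortas (0.39, adjusted p = 0.229, limma). Slc25a34 and Prdm16 are both on chromosome 4, with start sites 13.0 Mb apart. Of 248 tested genes within 20 Mb of Prdm16, 8.47% were called, against 0.953% of the tested genes elsewhere. The 8.47% includes Slc25a34, which was selected on its TPM, and the called genes near it, so it is not separate from them. The other carrier in that window, Slc25a33 at 4.86 Mb, a carrier of pyrimidine nucleotides, had a log2 fold change of -0.05 (adjusted p = 0.943, limma). The part of the chromosomal position in the level of Slc25a34 was not tested.

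**Figure D2:**
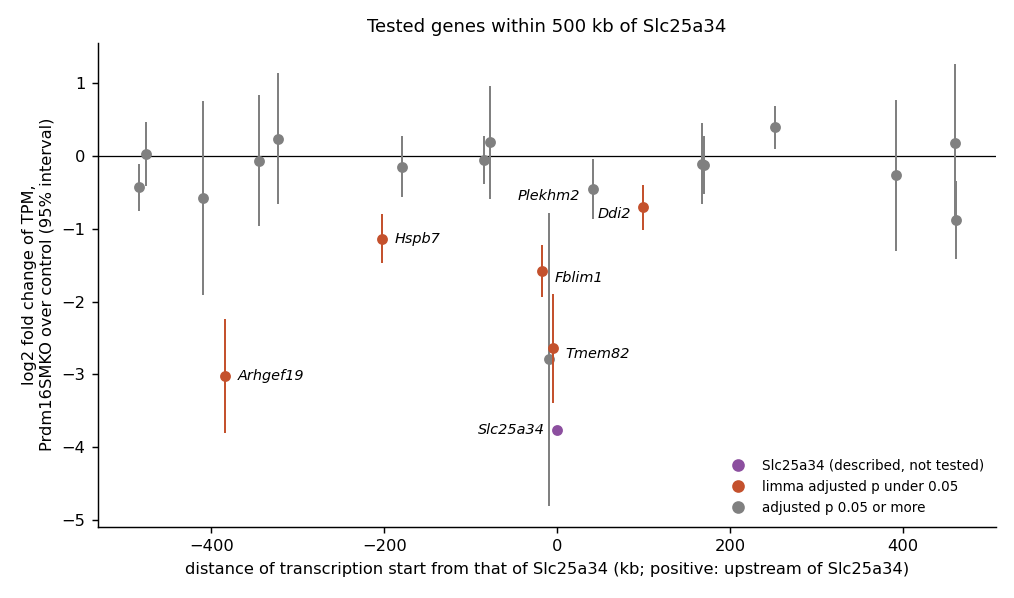
Log2 fold change of TPM (Prdm16SMKO over control) for Slc25a34, drawn without an interval, and for the 21 other tested genes within 500 kb, with 95% interval from limma, against the distance of their start sites from that of Slc25a34 in kb, positive upstream of it. The 5 called genes lie below 0 at both sides of Slc25a34, among uncalled genes.

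Smooth muscle markers were also lower in the Prdm16SMKO aortas. All 6 listed markers, Myh11, Acta2, Tagln, Cnn1, Smtn and Lmod1, had a negative log2 fold change, from -0.63 to -0.24, and none was called. Of all tested genes, 67.9% were negative. The summed TPM of the 6 markers was 20649 to 24074 in control and 13730 to 17733 in Prdm16SMKO aortas, so it did not overlap between groups. Acta2 was the largest part of this sum, with means of 11569 and 7512 TPM. Taken singly, 4 of the 6 did not overlap, while Myh11 and Smtn did. Of all tested genes, 14.9% had no overlap with lower values in Prdm16SMKO aortas. The fold change of Slc25a34 was beyond that of each of these markers, and their part in it was not tested. Of the 6 cardiomyocyte markers, 5 were tested, of which 3 had a negative and 2 a positive log2 fold change. Only Tnnt2 was called, and it rose by 4.42 (adjusted p = 0.00015, limma). The others tested were Myl7 (0.90), Myh6 (-0.20), Tnni3 (-0.42) and Myh7 (-1.996), with adjusted p from 0.377 to 0.918 (limma). None of the skeletal muscle, white or brown adipocyte, blood, macrophage, fibroblast or endothelial markers was called.

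Across the rest of the family no gene was called. Of the 38 other tested carriers, 0 had an adjusted p under 0.05 (limma), with a lowest value of 0.302, and 3 had an unadjusted p under 0.05, where 12.7% of all tested genes did. Log2 fold changes ran from -0.55 for Slc25a40 to 0.46 for Slc25a53. The median was -0.10, beside -0.12 over all tested genes, and 29 of the 38 (76.3%) were negative, beside 67.9% of all tested genes. With each aorta rescaled by its median ratio, the median was 0.02, beside 0.01 over all tested genes, and 22 were positive and 16 negative. This rescaling centres the genes near 0, so these signs do not bear on the balance before it. In 5 carriers the groups did not overlap, each lower in Prdm16SMKO aortas. Of all tested genes, 19% did not overlap and 14.9% did so with lower values. For 35 of the 38, the 95% interval of the log2 fold change lay within -1 to 1, against 68.8% of tested genes. A change of more than 2-fold is thus outside the interval for these 35, but smaller ones are not.

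**Figure D3:**
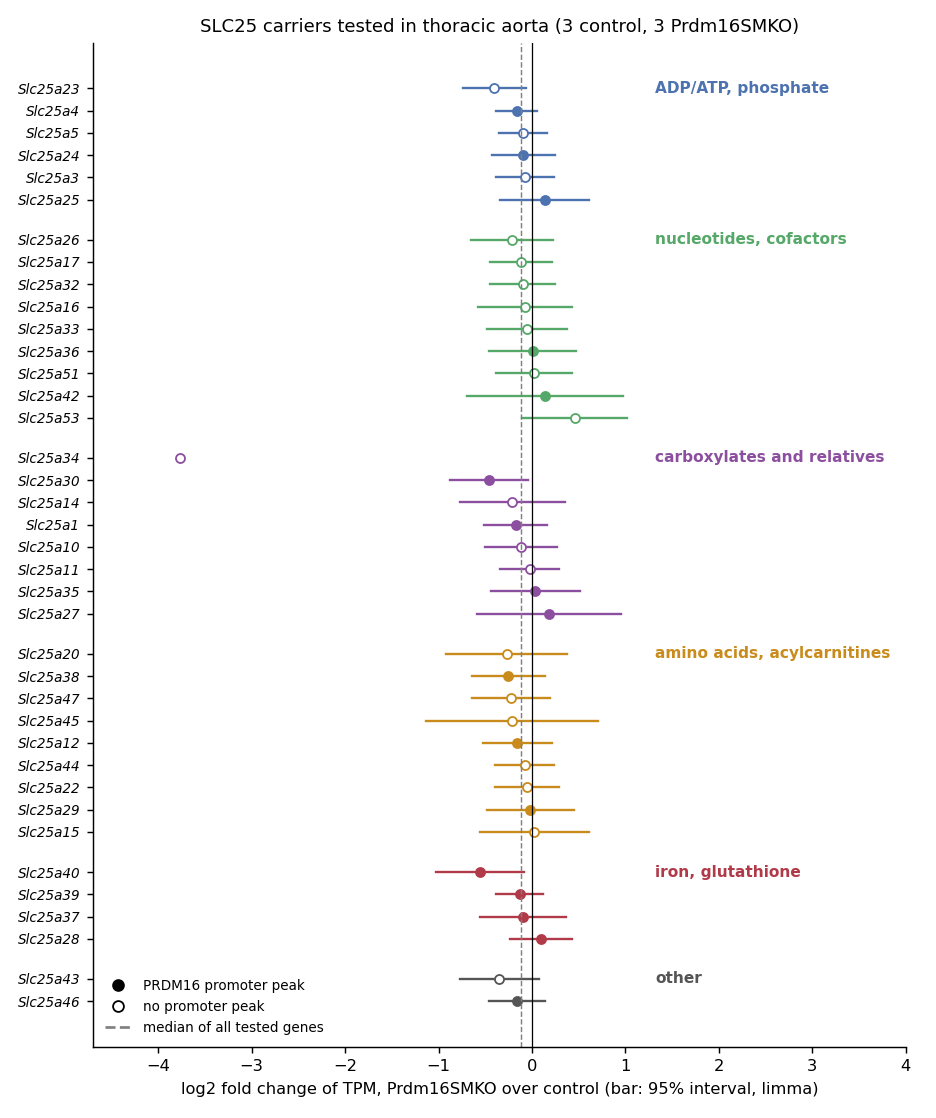
Log2 fold change of TPM in Prdm16SMKO over control aortas for the tested carriers, by what they move, with 1 of the 39 not drawn. Bars are 95% intervals (limma, 3 against 3), and Slc25a34 has none. Filled points have a PRDM16 promoter peak in fibroblasts, and the dashed line is the median of all tested genes, -0.12. Slc25a34 lies at -3.77, and the others drawn lie between -0.55 and 0.46.

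The summed level of the family overlapped between the groups. The 47 carriers added up to 1139, 1138 and 1020 TPM in control and to 984, 1049 and 936 TPM in Prdm16SMKO aortas, which overlap, with a ratio of means of 0.901. With the mitochondrially encoded genes left out of the total, the ratio was 0.922. The 6 most abundant carriers, Slc25a4, Slc25a3, Slc25a5, Slc25a23, Slc25a39 and Slc25a1, held 63.8% ± 0.810 of the sum in control and 63.4% ± 1.72 in Prdm16SMKO aortas (SD, n = 3). Slc25a4 alone held 22.9% ± 0.974 and 22.7% ± 0.108.

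The carriers of ADP, ATP and phosphate were the most abundant group. Slc25a4, the ADP/ATP carrier of heart and muscle, was at 253.07, 255.51 and 245.06 TPM in control and 224.37, 236.84 and 212.05 TPM in Prdm16SMKO aortas. The groups did not overlap, yet the log2 fold change was only -0.16 (SE 0.0981, adjusted p = 0.525, limma). Slc25a5, the ADP/ATP carrier of most other tissues, had 118.6 ± 12.1 TPM in control and 110.3 ± 4.10 TPM in Prdm16SMKO aortas (log2 fold change -0.10, adjusted p = 0.752, limma). The ratio of Slc25a4 to Slc25a5 was 2.13 ± 0.190 in control and 2.03 ± 0.0659 in Prdm16SMKO aortas, with overlap, so the muscle form was the larger one in every aorta. Slc25a3, the phosphate carrier, was at 141.5 ± 14.6 and 135 ± 18.8 TPM (-0.07, adjusted p = 0.867, limma). Slc25a31, the ADP/ATP carrier of male germ cells, did not exceed 0.33 TPM.

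Slc25a23 had the lowest adjusted p of the 38. It encodes a calcium-regulated carrier that exchanges ATP-Mg for phosphate, and it was at 101.46, 85.04 and 78.92 TPM in control and 66.59, 77.57 and 56.91 TPM in Prdm16SMKO aortas. The groups were apart by a small margin, and the log2 fold change was -0.40 (95% interval -0.74 to -0.06, adjusted p = 0.302, limma). Its relatives Slc25a24 and Slc25a25 had log2 fold changes of -0.09 and 0.13 (adjusted p 0.846 and 0.835, limma), with overlap. The ratio of Slc25a23 to Slc25a24 was 5.57 ± 0.165 in control and 4.51 ± 0.664 in Prdm16SMKO aortas. That to Slc25a25 was 9.96 ± 2.60 and 6.68 ± 0.280. Neither overlapped, but the margins were narrow. The lowest control against the highest Prdm16SMKO ratio was 5.38 against 5.28 for Slc25a24 and 6.97 against 6.85 for Slc25a25. An exon of Slc25a23 overlaps the opposite-strand gene Gm17168 and one of Slc25a25 overlaps Naif1.

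Among carriers of nucleotides and cofactors, all 10 were tested and none was called. Slc25a53, which has no well-defined substrate, had the highest log2 fold change in the family. It was at 3.00, 4.69 and 2.80 TPM in control and 3.88, 4.92 and 5.47 TPM in Prdm16SMKO aortas, with overlap (log2 fold change 0.46, 95% interval -0.11 to 1.02, adjusted p = 0.484, limma). The most abundant of the group were Slc25a51, the NAD+ carrier, at 36.2 ± 6.36 and 36.8 ± 7.23 TPM, and Slc25a36, a pyrimidine nucleotide carrier, at 34.4 ± 9.57 and 33.95 ± 5.37 TPM. Slc25a17, the peroxisomal member that moves coenzyme A and related cofactors, was at 26.2 ± 2.81 and 24.3 ± 3.14 TPM.

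The carboxylate carriers and uncoupling protein relatives hold Slc25a34 itself, and of the 7 others tested none was called. Slc25a1, the citrate carrier that feeds cytosolic acetyl-CoA, was at 49.8 ± 7.39 and 44.0 ± 5.32 TPM (log2 fold change -0.17, adjusted p = 0.664, limma). Slc25a11, the oxoglutarate carrier of the malate-aspartate shuttle, was at 27.4 ± 2.69 and 27.0 ± 3.00 TPM. Slc25a30, a relative of the uncoupling proteins, was at 3.95, 4 and 3.99 TPM in control and 2.95, 2.97 and 2.7 TPM in Prdm16SMKO aortas, without overlap. Its log2 fold change was -0.46 (95% interval -0.88 to -0.04, adjusted p = 0.348, limma).

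Carriers of amino acids and acylcarnitines numbered 13, of which 9 were tested and 0 called, with a median log2 fold change of -0.16. Slc25a12, the aspartate/glutamate carrier of excitable tissues, was at 15.96 ± 1.40 and 14.4 ± 2.60 TPM, whereas Slc25a13, the liver form, did not exceed 0.39 TPM. Slc25a38, the glycine carrier needed for haem synthesis, was at 15.7 ± 0.154 and 13.3 ± 2.94 TPM. Slc25a22, a glutamate carrier, was at 11.1 ± 1.61 and 10.7 ± 0.240 TPM, and Slc25a44, a carrier of branched-chain amino acids, at 10.2 ± 0.703 and 9.61 ± 0.471 TPM. The lowest log2 fold change of the group was -0.27 (Slc25a20) and the highest 0.03 (Slc25a15).

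The iron and glutathione carriers were 4, all tested. Slc25a39, a glutathione carrier, was at 51.2 ± 3.05 TPM in control and 46.6 ± 1.29 TPM in Prdm16SMKO aortas (log2 fold change -0.13, adjusted p = 0.651, limma). Its partner Slc25a40 was at 8.65, 6.07 and 5.80 TPM in control and 4.13, 5.29 and 4.33 TPM in Prdm16SMKO aortas. These did not overlap, and the log2 fold change was -0.55 (95% interval -1.02 to -0.08, adjusted p = 0.311, limma), the lowest of the 38. The mitoferrins Slc25a28 and Slc25a37, which bring iron into the matrix, had 0.10 and -0.09 (adjusted p 0.832 and 0.889, limma). Of the remaining carriers, Slc25a43, whose substrate is unknown, was at 6.14 ± 0.530 and 4.82 ± 0.815 TPM (log2 fold change -0.35, adjusted p = 0.473, limma), and Slc25a46, an outer membrane protein that acts in mitochondrial dynamics, at 13.9 ± 0.944 and 12.4 ± 0.467 TPM (-0.16, adjusted p = 0.654, limma).

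The 8 carriers under the filter were Slc25a2, Slc25a13, Slc25a18, Slc25a21, Slc25a31, Slc25a41, Slc25a48 and Slc25a54. Their highest mean over the 6 aortas was 0.283 TPM, while the lowest mean of a tested carrier, Slc25a45, was 1.04 TPM. Slc25a41 was listed at 0 in every aorta.

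Some carriers varied more within a group than between groups. Slc25a20, the carnitine/acylcarnitine carrier of fatty acid oxidation, was at 13.84, 26.91 and 17.33 TPM in control aortas 1 to 3 and 12.93, 12.59 and 22.44 TPM in Prdm16SMKO aortas 1 to 3. Slc25a42, a coenzyme A carrier, was at 5.22, 12.94 and 8.32 TPM and at 6.45, 8.02 and 14.66 TPM in the same order. Both were highest in control aorta 2 and Prdm16SMKO aorta 3. These carriers are named here after their values were seen.

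The summed brown adipocyte markers (Ucp1, Cidea, Cox7a1, Cox8b, Elovl3, Dio2, Ppargc1a and Plin5) were 104.0, 613.2 and 325.9 TPM in control aortas 1 to 3 and 177.7, 151.1 and 521.3 TPM in Prdm16SMKO aortas 1 to 3. Ucp1, the uncoupling protein of brown fat and itself a carrier of this family under another symbol, ran from 15.34 to 116.8 TPM in control and from 22.35 to 127.23 TPM in Prdm16SMKO aortas. The sums were thus highest in the same pair of aortas as Slc25a20 and Slc25a42, and the groups overlapped. Within the brown list, Ppargc1a was lowest in control aorta 2 (1.62 TPM). The summed white adipocyte markers were also highest in control aorta 2 (2045.6 TPM) and Prdm16SMKO aorta 3 (1125.1 TPM). Of these, Retn, Lep and Cfd were highest in Prdm16SMKO aorta 1 of their group. Slc25a34 was low in all 3 Prdm16SMKO aortas, whose brown marker sums were 177.7, 151.1 and 521.3 TPM. Its highest value was in the control aorta with the lowest sum. The part of adipose tissue in the levels of Slc25a20, Slc25a42 and Slc25a34 was not tested.

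**Figure D4:**
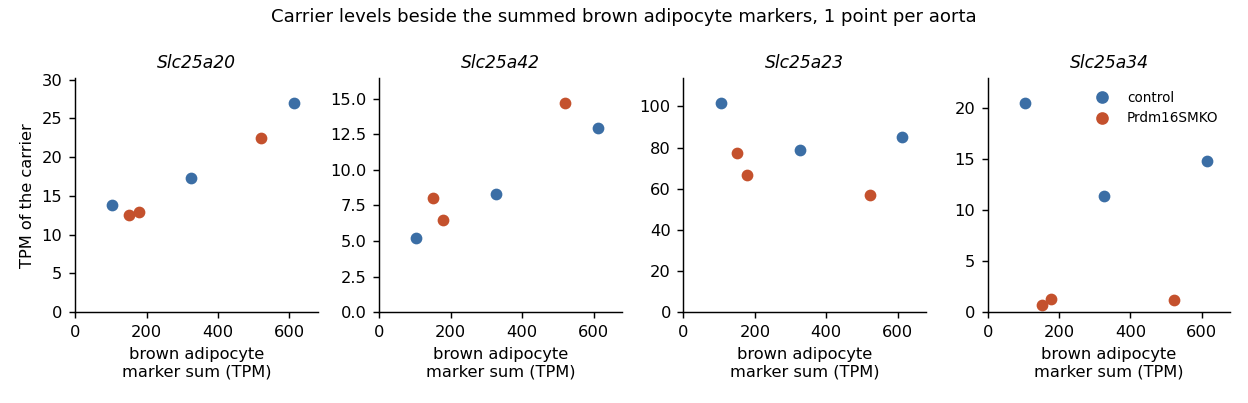
TPM of Slc25a20, Slc25a42, Slc25a23 and Slc25a34 against the summed TPM of 8 brown adipocyte markers, 1 point per aorta, both axes linear and starting at 0. Slc25a20 and Slc25a42 are highest in the aortas with marker sums of 521.3 and 613.2 TPM in either group, whereas Slc25a34 is higher in each of the 3 control aortas than in each of the 3 Prdm16SMKO aortas.

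Companion genes of the carriers were read from lists. Of 16 genes of the machinery that brings carriers into the inner membrane, 1 was called, where 0.683% of tested genes were called lower. This was Timm22, the channel subunit of the carrier translocase, at 17.13, 14.99 and 15.11 TPM in control and 7.77, 8.55 and 8.90 TPM in Prdm16SMKO aortas. Each Prdm16SMKO value lay below each control value, and Timm22 fell by 0.90 on the log2 scale (SE 0.140, adjusted p = 0.0218, limma). The call held in 9 of 15 alternative settings. It was lost without the mean-variance trend and without 5 of the aortas in turn, all but Prdm16SMKO 3, with adjusted p-values up to 0.108. Timm22 had a PRDM16 promoter peak in fibroblasts, as did 37.5% of this list and 43.3% of genes tested in the aorta. The remaining 15 genes of that list were not called, and its median was -0.11. None was called of 20 genes of other mitochondrial transport (pyruvate, anion and calcium channels and sideroflexins, median log2 fold change -0.12), of 9 regulators of mitochondrial biogenesis (-0.05), or of 5 carriers with other symbols, Ucp1, Ucp2, Ucp3, Mtch1 and Mtch2 (-0.10).

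PRDM16 Flag peaks were then read at the start sites of the carriers. A promoter peak was one whose centre lies no more than 2 kb from the start of a RefSeq transcript of the curated set. Of the 47 carriers, 20 had one (42.6%), with 22 peaks in all, and 0 had a peak of the empty vector, whose list held 67 peaks against 11271 for PRDM16. Of the carriers tested in the aorta 46.2% had a promoter peak, against 43.3% of all tested genes and 44.7% of genes in the same TPM range, while 26% of all RefSeq genes had one. The carriers were therefore close to other expressed genes in this respect. Slc25a34 had none within 5 kb either, and its nearest peak was centred 39.8 kb upstream, in Plekhm2, with a fold enrichment of 6.30 over the local background. By the same 2 kb rule this was a promoter peak of Plekhm2. There were 6 peaks within 100 kb of the Slc25a34 TSS, among them promoter peaks of Plekhm2, Spen, Ddi2 and the pseudogene B330016D10Rik. Peaks come from 1 library of fibroblasts, so they have no replicate check, and the absence of a peak there says nothing of the aorta.

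Most of the carrier peaks lay just past the start site. Of the 22, 18 were centred downstream of the TSS (81.8%, beside 79.6% of all 6873 promoter peaks) and 4 upstream, at Slc25a28, Slc25a35, Slc25a40 and Slc25a42. Slc25a28 and Slc25a42 had 1 peak on each side. Fold enrichment ran from 3.40 to 7.73 with a median of 5.47, beside 5.27 for all promoter peaks. Lengths ran from 236 to 869 bp, with a median of 410.5 bp beside 436 bp. In 6 of the 22 the TSS of another gene lay within 2 kb too, so these peaks cannot be assigned to the carrier alone.

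The highest fold enrichment was 7.73 at Slc25a27, a brain-enriched uncoupling protein relative, centred 311 bp downstream of its TSS and also near that of Cyp39a1. Slc25a25 and Slc25a36 had 7.03 each, Slc25a42 had 6.68 for its upstream peak, and Slc25a35 and Slc25a46 had 6.51 each. None of these 6 carriers had a limma adjusted p under 0.05 in the aorta. By role, all 4 iron and glutathione carriers had a promoter peak, as did 5 of 9 carboxylate carriers and relatives, 4 of 13 amino acid and acylcarnitine carriers, 3 of 10 nucleotide and cofactor carriers and 3 of 9 ADP, ATP and phosphate carriers. With so few genes in each role, no difference between roles was tested.

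**Figure D5:**
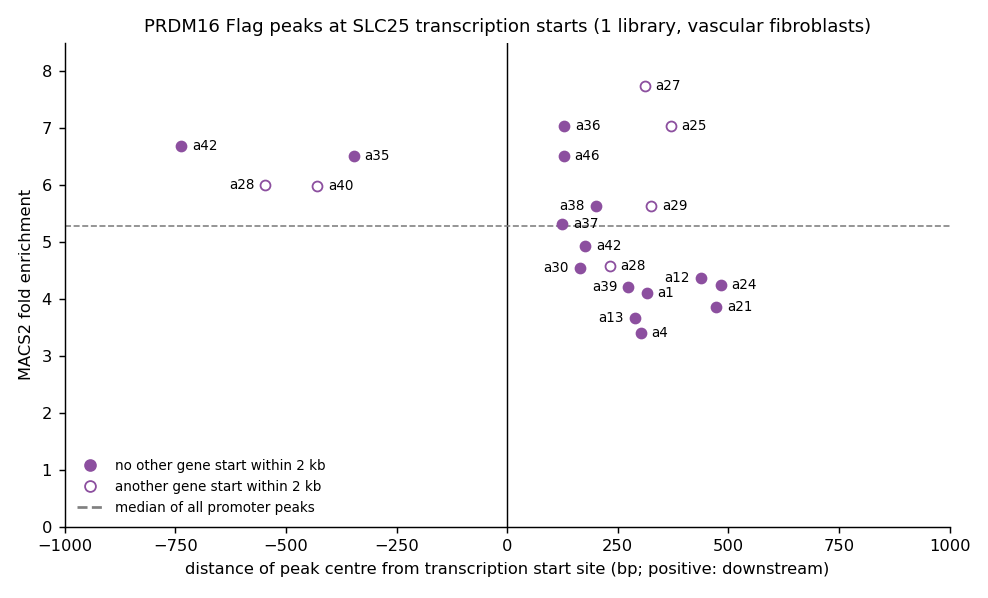
Fold enrichment by MACS2 against the distance of the peak centre from the TSS in bp, positive downstream, for the PRDM16 Flag promoter peaks of the carriers, with 1 of the 22 not drawn (Slc25 omitted from the labels). Open points have the TSS of another gene within 2 kb, and the dashed line is the median of all promoter peaks, 5.27. The 4 upstream peaks belong to Slc25a28, Slc25a35, Slc25a40 and Slc25a42.

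Sequence at the peaks is shown for the closest relative of Slc25a34, for both peaks of the coenzyme A carrier and for the most abundant carrier, each outside annotated exons. Windows of 121 bases centred on the peak summit are printed 5′ to 3′ on the strand of the gene, from GRCm38, with CpG in capitals. They are chr11:68967837-68967957 (plus strand) upstream of Slc25a35, chr8:70212971-70213091 and chr8:70212018-70212138 (minus strand) upstream and downstream of the Slc25a42 TSS, and chr8:46210513-46210633 (minus strand) downstream of the Slc25a4 TSS.
Slc25a35 upstream peak: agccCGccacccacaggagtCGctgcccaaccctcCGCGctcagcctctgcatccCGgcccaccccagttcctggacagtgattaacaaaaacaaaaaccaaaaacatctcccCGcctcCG
Slc25a42 upstream peak: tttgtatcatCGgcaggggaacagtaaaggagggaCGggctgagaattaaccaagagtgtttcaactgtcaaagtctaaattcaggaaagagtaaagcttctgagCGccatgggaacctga
Slc25a42 downstream peak: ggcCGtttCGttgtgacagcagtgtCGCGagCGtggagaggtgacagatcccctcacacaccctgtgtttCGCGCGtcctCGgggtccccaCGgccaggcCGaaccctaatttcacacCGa
Slc25a4 downstream peak: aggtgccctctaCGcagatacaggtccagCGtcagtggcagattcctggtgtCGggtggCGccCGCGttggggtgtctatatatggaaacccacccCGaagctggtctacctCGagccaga
They hold 7, 3, 12 and 8 CpG. The 21 summit windows read had 3 to 18 CpG, with a median of 11, and a median of 68.6% G or C. The pair of Slc25a42 windows shows the contrast, with 45.5% G or C in the upstream and 62.8% in the downstream one. None of the 4 printed windows holds a match to the motifs searched.

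By median, promoters of carriers with a peak were richer in G, C and CpG than those without. Over 300-base windows (250 before to 50 after the TSS, RefSeq, GRCm38), the 15 with a peak had a median of 65.7% G or C and 25 CpG. The 21 without had 59% and 15. All RefSeq promoters, which include those of genes not tested in the aorta, had 52.7% and 7. The ranges overlapped, at 3 to 47 CpG with a peak and 1 to 51 without. Whether composition has a part in the peaks was not tested. The promoter of Slc25a34 had 59% G or C, the median of carriers without a peak, and was low in CpG only. Slc25a21, with 3 CpG, had a peak, and Slc25a15, with 51, had none.

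Motifs were searched on both strands in the same windows. The GC box (GGGCGG) was in 30 of 36 carrier promoters and in 35.7% of all promoters. All promoters include those of genes not tested in the aorta, and shares among tested genes alone are not given here. An ETS site (CCGGAAG) was in 7 (8.86% of all promoters), among them Slc25a3, Slc25a4 and Slc25a20, and an E-box (CACGTG) was in 7 (7.15%). A CRE (TGACGTCA) was in 2, Slc25a25 and Slc25a36 (1.79%), and both had a peak. The NRF1 motif was in 2, Slc25a3 and Slc25a31 (4.6%), and a GATA core (AGATAA) in 3 (11.2%).

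Carriers with and without a peak in fibroblasts had similar log2 fold changes in the aorta. The 18 other tested carriers with a promoter peak had a median log2 fold change of -0.11 (range -0.55 to 0.18), and the 20 without had -0.10 (range -0.40 to 0.46). Over all tested genes the medians were -0.11 with and -0.12 without a promoter peak, and 1.04% and 1.21% of these genes were called. Slc25a35 had a peak and a log2 fold change of 0.04, and Slc25a34 had no promoter peak and -3.77. Of the called genes within 500 kb of Slc25a34, Ddi2, Arhgef19 and Hspb7 had a promoter peak, and Tmem82 and Fblim1 had none. Of all genes tested in the aorta, 43.3% had one.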

How the data were processed

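RNA-Seq and ChIP-Seq peak tables were used as deposited. The authors deposited TPM, 1 column per thoracic aorta, from poly(A)-selected libraries. The submitters' processing notes name STAR 2.7.8a, RSEM 1.3.3, cutadapt 2.3, Bowtie2 2.3.4.1, HOMER 4.11 and the build GRCm38, without roles. TPM keep no depth, so the depth per aorta is unknown and no counting interval was computed. The authors mapped ChIP reads to GRCm38 and used MACS2 to call peaks (q cutoff 0.01), with a control that is not stated. The deposited lists give for each peak a score (not used), −log10 p, −log10 q and the fold enrichment, a ratio to local background. They hold no read counts. The IgG libraries were not analysed here.

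Log2(TPM + 0.1) was fitted with limma 3.58.1 in R 4.3.3 (lmFit, eBayes with trend, two-sided), for the 15668 genes whose TPM averaged 0.5 or more, with Benjamini-Hochberg adjustment over all of them and a threshold of 0.05. No covariate was used. Log2 fold changes understate the change of low genes because of the pseudocount. The fit was also run on simulated data with known changes, as a check of the code. Those values were drawn for each gene independently from a normal distribution, so they do not give error rates for these aortas. Correlations of the deviations of same-numbered aortas were -0.0246, -0.07 and -0.00896. These values show no strong shared variation by number, but they cannot exclude a pairing. Promoter peaks and sequences were taken with curated RefSeq start sites on GRCm38, and gene positions with GENCODE annotation of the same build. Of the carriers, 36 have an entry in the RefSeq promoter table. Those without one include Slc25a2, Slc25a26, Slc25a27, Slc25a32, Slc25a35, Slc25a37, Slc25a41, Slc25a44, Slc25a46 and Slc25a51.

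Genes named in full were Slc25a34, any carrier called, the 6 carriers with the highest control TPM, the 6 with the largest log2 fold change in size, those with the highest fold enrichment of a promoter peak, Prdm16, genes of the companion and marker lists, and coding genes within 100 kb of Slc25a34. The carriers and lists were chosen with earlier results of these data known. Alternatives were the pseudocount, the filter, the scaling, the trend, a replicate block, leaving out each aorta, and the window and threshold of peaks. A carrier that is kept in the counts is not reported here by name.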

Additional observations from a re-analysis of the deposited data

How the results depend on the processing

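The count of 0 called among the 38 other carriers was kept in all 15 alternatives, and of 570 fits of a carrier in an alternative, 0 had a limma adjusted p under 0.05 (lowest 0.116, Slc25a23 after median ratio rescaling). The sign was less stable, and 22 of the 38 changed it in at least 1 alternative. Slc25a34 stayed between -3.97 and -2.99 on the log2 scale. The number of genes called over the whole table, 168, was 413 after median ratio rescaling, 392 with quantile normalization, 275 without mitochondrially encoded genes, 110 with no filter and 48 without the trend. It ran from 91 to 141 with 1 aorta left out, lowest without control 1. The cause was not tested. With the replicate number as a block (replicate block) 184 genes were called, among them 0 of the 38 carriers. The count of carriers with a PRDM16 promoter peak, 20, was 20 within 1 kb or 5 kb and with the summit in place of the centre, 17 at q of at most 0.001, and 4 with a window from 1 kb upstream to 100 bp downstream, in which 9.12% of all genes had one. The log2 ratio of the summed TPM of the family, -0.15, ran from -0.20 to -0.11 with 1 aorta left out. TPM without depth limit what can be said of the 8 carriers near 0, and 1 ChIP library allows no test of peaks.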
